A study of Mus musculus with 4 samples.

Results

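The polyamine synthesis and antizyme genes compared here are Odc1, Amd1, Srm, Sms, Sat1, Oaz1, Oaz2 and Azin1, chosen by symbol from the pathway. All 8 were found among the 37224 Ensembl genes of the deposited tables, and all 8 had enough reads to be tested. The series holds RNA-seq of mouse embryonic stem (ES) cells in 2 groups, normal and Smg6-deficient, each with 2 libraries. The sample titles call the controls normal ES cells, and they are named wild type here. The protein Smg6 cuts RNA near stop codons that the cell treats as premature, a step of nonsense-mediated mRNA decay (NMD). The labels name neither the Smg6 allele, the parental line, the culture medium nor whether libraries of a genotype came from separate cultures, so the spread that the p-values rest on is that between libraries and may be technical. The comparison asks how the level of each gene differs between the cells labelled Smg6-deficient and those labelled normal.

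Polyamines (putrescine, spermidine and spermine) are small cations that bind nucleic acids and are needed for cell growth. Ornithine decarboxylase, the product of Odc1, makes putrescine and sets the pace of the pathway; spermidine synthase (Srm) and spermine synthase (Sms) extend it with groups donated by decarboxylated S-adenosylmethionine, which Amd1 supplies, and Sat1 acetylates spermidine and spermine so that they can be exported or oxidised. Antizymes (Oaz1, Oaz2) bind ornithine decarboxylase and deliver it to the proteasome, and the antizyme inhibitor Azin1, a decarboxylase homologue without enzyme activity, holds antizymes away from it. Antizyme synthesis needs a ribosomal shift of reading frame at a stop codon inside the coding region, which polyamines promote. Myc is known to activate Odc1 and other genes of polyamine synthesis, and Sat1 is known for an alternative exon that makes its transcript unproductive.

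The frameshift sites of the antizymes are shown because they place a stop codon far ahead of the end of the coding region. Each line gives 30 bases from 5′ to 3′ on GENCODE M21 transcripts (GRCm38). The last codon before the stop, the stop codon TGA and the next base are in capitals. GENCODE writes the base skipped by the frameshift as a gap of 1 base between exons in Oaz1-207 and Oaz2-206. That base was filled in from another annotated transcript of the gene before the lines, codons and distances were taken.
Oaz1: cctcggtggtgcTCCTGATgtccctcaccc
Oaz2: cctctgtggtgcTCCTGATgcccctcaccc
The capitals lie at chr10:80828292-80828298 for Oaz1 and chr9:65686269-65686275 for Oaz2, both on the plus strand and in an exon. The windows were identical at 28 of 30 bases. In transcript Oaz1-207 the frame that starts at the ATG runs for 68 codons to this TGA, and the shifted frame adds 159 codons. In Oaz2-206 the corresponding lengths are 32 and 157 codons. The TGA lies 344 bases before the last exon junction in Oaz1-207 and 341 bases before it in Oaz2-206, whereas the stop codon of the shifted frame lies in the last exon of both. GENCODE assigns no NMD transcript to Oaz1, Oaz2, Srm or Amd1.

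Odc1, Azin1, Sat1 and Sms each have at least 1 transcript that GENCODE types as an NMD substrate, 4 of 8 genes against 25.2% of the 16455 tested coding genes. The stop codons that end their open reading frames early are shown because transcripts with such stops are what NMD is known to act on. Each line gives 27 bases of the spliced transcript from 5′ to 3′, with the stop codon in capitals.
Odc1-208: atagcagagccaTAGtgagcaccctag
Odc1-205: ttctctccctctTAGatcaccagtgta
Azin1-205: attgtttttcatTAGgttcacttgatt
Azin1-202: ttggctttacaaTGAacatgttagaca
Sat1-207: ggttacagtctcTAGcttcgccatgta
Sms-204: atttcctcagacTGAttctcgacctgt
The stop codons lie at chr12:17547757-17547759 and chr12:17549421-17549423 (plus strand) for Odc1-208 and Odc1-205. Those of Azin1-205 and Azin1-202 lie at chr15:38497535-38497537 and chr15:38494345-38494347, that of Sat1-207 at chrX:155215217-155215219 and that of Sms-204 at chrX:157454887-157454889, all on the minus strand. The distance from the stop codon to the last exon junction is 1016 bases in Odc1-208, 491 in Odc1-205, 919 in Azin1-205, 53 in Azin1-202, 239 in Sat1-207 and 169 in Sms-204. Every one of these 6 distances exceeds the 50 bases usually taken as the limit for NMD. The annotated coding part of Odc1-205 and Azin1-202 is incomplete. The deposited counts are sums over a gene, so none of the values below separates these transcripts from the productive ones.

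Total gene counts were between 130888768 and 155391181 per library. Smg6 itself stood at 95.7 and 105.1 CPM (counts scaled to a common library size after TMM normalization) in wild-type replicates 1 and 2 and at 87.6 and 86.2 CPM in Smg6-deficient replicates 1 and 2. Its log2 fold change of -0.21 was not past the threshold (adjusted p = 0.0886 by edgeR). It passed without wild-type replicate 1 (-0.26, edgeR adjusted p = 0.0147), with library size alone as the scaling (-0.27, 0.0440) and with a correction for gene length (-0.36, 0.00982). A count over the whole gene does not check a deletion of part of it. The 10 ES cell markers were all detected, and their summed level was 4527 to 5123 CPM in wild-type and 3260 to 3271 CPM in Smg6-deficient libraries, with 7 of 10 lower and 2 of 10 higher. The summed level of 10 endoderm markers was 274 to 323 CPM in wild-type and 1567 to 2467 CPM in Smg6-deficient libraries, with 10 of 10 higher. The 10 fibroblast markers summed to 732 to 995 and 1089 to 1194 CPM, with 2 of 10 higher. No marker of the 3 lists was at 0, and the part of these shifts in the values below was not tested. In bulk RNA, fewer cells of a type and less RNA per cell cannot be told apart. Of 20895 tested genes, 20.5% rose and 19.2% fell in Smg6-deficient cells at an adjusted p under 0.05, 39.7% together, and the groups did not overlap in 73.2%.

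Of the 8 polyamine genes, 3 rose (Odc1, Srm and Azin1), 2 fell (Sms and Sat1) and 3 did not pass the threshold (Amd1, Oaz1 and Oaz2). The shares among all tested genes were 20.5% higher and 19.2% lower. The median log2 fold change of the 8 genes was 0.22, against 0.0080 over all tested genes. The genes that rose all lie on autosomes, and those that fell both lie on the X chromosome. For 7 of the 8 genes, all but Amd1, every library of one group lay above every library of the other, beside 73.2% of all tested genes. In what follows a fold change divides the Smg6-deficient by the wild-type level. P-values of edgeR are from its quasi-likelihood test, adjusted over all tested genes by the Benjamini-Hochberg method.

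**Figure D1:**
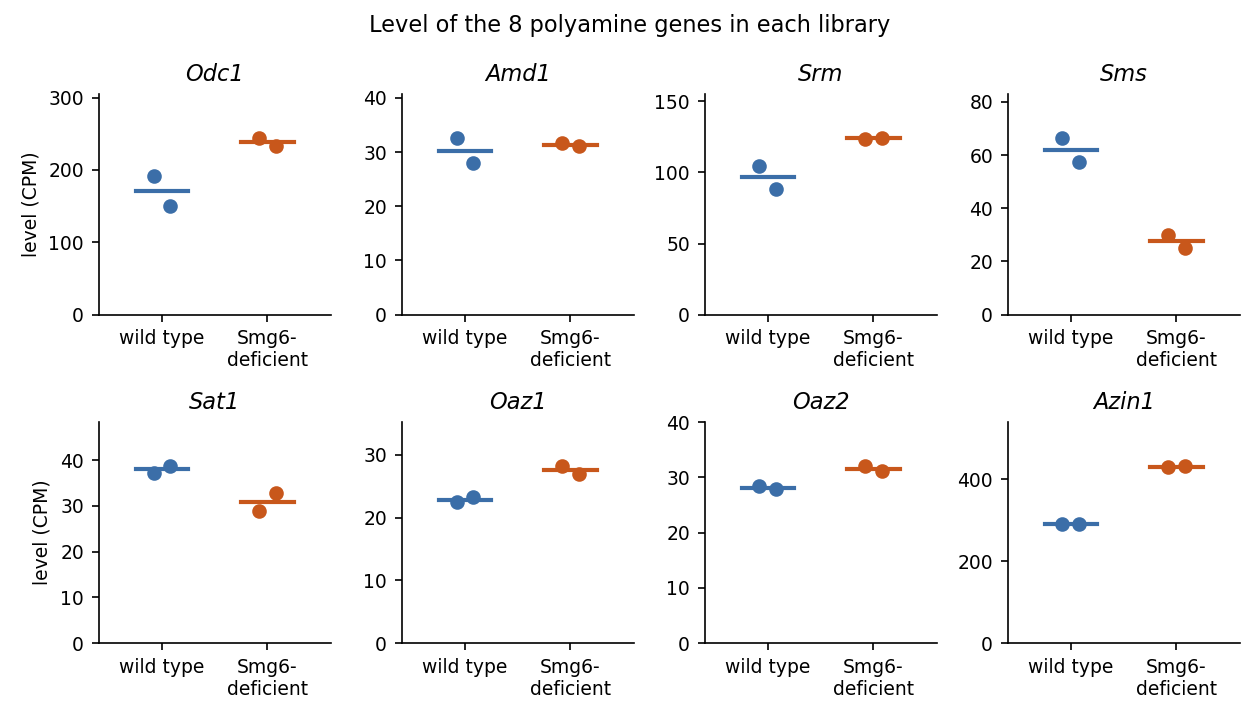
Level of each of the 8 genes in CPM (vertical axis, linear, from 0) in the wild-type (blue) and Smg6-deficient (orange) libraries. Points are single libraries and lines the mean of 2. Azin1 shows the tightest pairs for its level, and Odc1 the wider spread between its wild-type libraries, at 191 and 151 CPM.

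Odc1 (ENSMUSG00000011179, chromosome 12, 17544794 to 17551505, plus strand), the gene of the pace-setting decarboxylase, was counted 26776 and 20155 times in wild-type replicates 1 and 2 and 37313 and 31557 times in Smg6-deficient replicates 1 and 2. Relative to library size these are 191 and 151 CPM in wild type and 245 and 234 CPM in Smg6-deficient cells, so that the groups did not overlap, although the spread was wider between wild-type than between Smg6-deficient libraries. The level rose 1.399-fold, with a log2 fold change of 0.48, an SE of 0.12 and an adjusted p of 0.0200 by edgeR. Leaving out wild-type replicate 2, the library with the lower level, reduced the log2 fold change to 0.30 (edgeR adjusted p = 0.00921), and leaving out Smg6-deficient replicate 1 ended the call (0.46, edgeR adjusted p = 0.0506). It also ended by limma-trend on log2(RPKM + 1), which gave a log2 fold change of 0.44 (limma-trend adjusted p = 0.113).

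Srm (ENSMUSG00000006442, chromosome 4, 148591503 to 148594993, plus strand), which makes spermidine, stood at 105 and 88.4 CPM in wild-type and at 124 and 124 CPM in Smg6-deficient replicates 1 and 2. The Smg6-deficient libraries agreed closely and both lay above the wild-type ones, of which replicate 2 was again the lower. The rise was 1.29-fold (log2 fold change 0.36, SE 0.099, edgeR adjusted p = 0.0276). Its call ended when Smg6-deficient replicate 1 was left out (edgeR adjusted p = 0.0984) or replicate 2 (0.106) and by limma-trend on log2(RPKM + 1) (limma-trend adjusted p = 0.142), and the log2 fold change fell to 0.23 without wild-type replicate 2 (edgeR adjusted p = 0.0306).

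Amd1 (ENSMUSG00000075232, chromosome 10, 40287458 to 40302186, minus strand), the source of the aminopropyl groups for spermidine and spermine, had 32.6 and 27.9 CPM in wild-type and 31.7 and 31.0 CPM in Smg6-deficient replicates 1 and 2. The Smg6-deficient libraries fell between the wild-type ones. Its log2 fold change was 0.052 (SE 0.10, edgeR adjusted p = 0.719), and 2 SE on either side reached from -0.16 to 0.26. The sign changed without wild-type replicate 2 (-0.077) and with library size alone as the scaling (-0.0049), neither of them past the threshold.

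Sms (ENSMUSG00000071708, chromosome X, 157443855 to 157492287, minus strand), which makes spermine, showed the largest difference of the 8 genes on the log2 scale. It had 9314 and 7700 counts in wild-type and 4560 and 3407 counts in Smg6-deficient replicates 1 and 2, or 66.5 and 57.5 against 29.9 and 25.2 CPM. Every wild-type library was well above every Smg6-deficient one. The level fell to 0.444 of wild type (log2 fold change -1.17, SE 0.12, edgeR adjusted p = 0.000772). It passed the threshold under each of the 17 alternative settings, with log2 fold changes from -1.29 to -1.04.

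Sat1 (ENSMUSG00000025283, chromosome X, 155213132 to 155216449, minus strand), the acetyltransferase of polyamine breakdown and export, stood at 37.2 and 38.7 CPM in wild-type and at 28.9 and 32.7 CPM in Smg6-deficient replicates 1 and 2. The groups did not overlap, but the Smg6-deficient libraries differed by more than the wild-type ones. The gene fell to 0.812 of wild type, close to the threshold (log2 fold change -0.30, SE 0.096, edgeR adjusted p = 0.0459). The call ended on leaving out Smg6-deficient replicate 1 (-0.20, edgeR adjusted p = 0.416) or replicate 2 (-0.38, 0.102), with no filter on low counts (-0.29, 0.0789) and with a gene length correction (-0.26, 0.0806).

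X-linked genes as a whole were lower in the Smg6-deficient libraries, which bears on Sms and Sat1. Among 1040 tested X-linked genes the median log2 fold change was -0.76, with quartiles at -1.35 and -0.21, and 56.7% were lower and 3.56% higher. Sms lay 0.41 below the X-linked median on the log2 scale, and 324 of the 1040 X-linked genes had a lower value. Sat1 lay 0.46 above that median, with 729 of them lower. A difference of X-linked genes as a group and an effect of Smg6 on these 2 genes cannot be told apart in this design. Sat1 and Sms lie within 2.28 Mb of each other, and of 9 tested genes between them 4 were lower and 1 higher, with a median of -0.28. For comparison, the 6 autosomal members had a median log2 fold change of 0.32, and 3 of them were higher. Of 19430 tested autosomal genes, 4195 were higher and 3353 lower, with a median of 0.031.

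**Figure D2:**
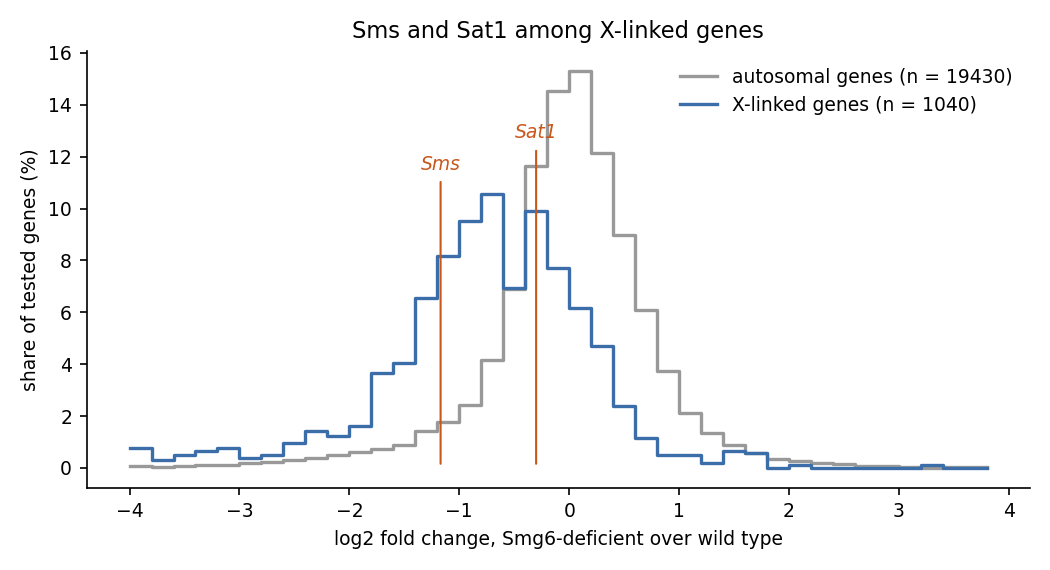
Share of tested genes (vertical axis, percent) by log2 fold change in bins of 0.2 (horizontal axis, drawn from -4 to 4) for autosomal genes (grey) and X-linked genes (blue), with vertical lines at Sms and Sat1. Sms at -1.17 lies below the X-linked median of -0.76, and Sat1 at -0.30 lies above it; 71 X-linked genes lie outside the drawn range.

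Azin1 (ENSMUSG00000037458, chromosome 15, 38487427 to 38519266, minus strand), the antizyme inhibitor, had the smallest spread relative to its level and the largest rise of the 8 genes. Its counts were 40621 and 38849 in wild-type and 65662 and 58337 in Smg6-deficient replicates 1 and 2, which correspond to 290.1 and 290.3 CPM and to 430.4 and 432.0 CPM. The groups differed by 141 CPM, with SDs of 0.095 and 1.16 CPM within them. An SD of 2 libraries can be small by accident, so these SDs do not measure how precisely the level is known. The rise was 1.49-fold (log2 fold change 0.57, SE 0.078, edgeR adjusted p = 0.00211). It passed under each of the 16 alternative settings, with log2 fold changes from 0.48 to 0.58.

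Oaz1 (ENSMUSG00000035242, chromosome 10, 80826656 to 80829290, plus strand), the main antizyme, had 22.5 and 23.2 CPM in wild-type and 28.2 and 26.9 CPM in Smg6-deficient replicates 1 and 2. The groups did not overlap, yet the log2 fold change of 0.27 (SE 0.090) missed the threshold (edgeR adjusted p = 0.0519). It passed with the gene length correction (0.33, edgeR adjusted p = 0.0293) and without wild-type replicate 2 (0.27, edgeR adjusted p = 0.0457). Oaz2 (ENSMUSG00000040652, chromosome 9, 65668001 to 65690300, plus strand), a second antizyme, had 28.4 and 27.8 CPM in wild-type and 32.0 and 31.1 CPM in Smg6-deficient replicates. Its log2 fold change of 0.17 (SE 0.085) was not called (adjusted p = 0.167 by edgeR), and 2 SE on either side reached from -0.0050 to 0.34.

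Many reads were counted at processed copies of the antizyme and synthase genes. Oaz1-ps, an intronless pseudogene of Oaz1 on chromosome 17 (17345456 to 17346140, minus strand), was counted 11664 and 10177 times in wild-type and 15383 and 13395 times in Smg6-deficient replicates 1 and 2, against 3147, 3111, 4299 and 3632 counts for Oaz1. The pseudogene thus held 76.6% to 78.8% of the reads of the pair in every library. Its sequence over the 30 bases of the frameshift site is the same as that of Oaz1, and 52.2% of all stretches of 50 bases, the read length, in transcript Oaz1-201 occur in it without a mismatch. How reads with several alignments were assigned is not given in the sources used here, so the level of Oaz1 on its own is uncertain. Oaz1-ps rose by a log2 fold change of 0.33 (edgeR adjusted p = 0.0204). That call ended without Smg6-deficient replicate 1 (edgeR adjusted p = 0.144) or replicate 2 (0.113) and by limma-trend on log2(RPKM + 1) (limma-trend adjusted p = 0.147), and the gene length correction moved the value to 0.62. When the counts of gene and pseudogene were summed, a step chosen after seeing the data, the pair stood at 106 and 99.3 CPM in wild-type and 129 and 126 CPM in Smg6-deficient replicates, and the log2 fold change of 0.32 (SE 0.079) passed (edgeR adjusted p = 0.0197).

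Sms-ps, on another part of the X chromosome (62775585 to 62776685, minus strand), held 39.3% to 42.0% of the reads of its pair and moved with Sms, with a log2 fold change of -1.24 (edgeR adjusted p = 0.000981). Summing Sms with its copies gave -1.20 (SE 0.12, edgeR adjusted p = 0.000758). Oaz2-ps took 18.6% to 19.95% of its pair, and their sum, with a log2 fold change of 0.16, was not called (adjusted p = 0.163 by edgeR). Amd2, an intronless copy that shares 86.1% of the stretches of 50 bases of Amd1, received only 32 to 49 counts per library, 0.76% to 1.00% of its pair. With all other annotated genes, Amd1 shares 87.6% of such stretches. The low counts of Amd2 do not show how shared reads were assigned, so the level of Amd1 is uncertain as well. Odc1 shares 42.2% of such stretches with 16 other annotated genes, but summing it with 8 pseudogenes among these left its log2 fold change at 0.48 (edgeR adjusted p = 0.0184). The share was 28.7% for Sms, 11.98% for Oaz2, 7.28% for Sat1, 6.43% for Azin1 and 2.40% for Srm. The 6.43% of Azin1 overlaps an antisense gene, Gm49077, that was not analysed here, and the library kit does not mark strand.

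**Figure D3:**
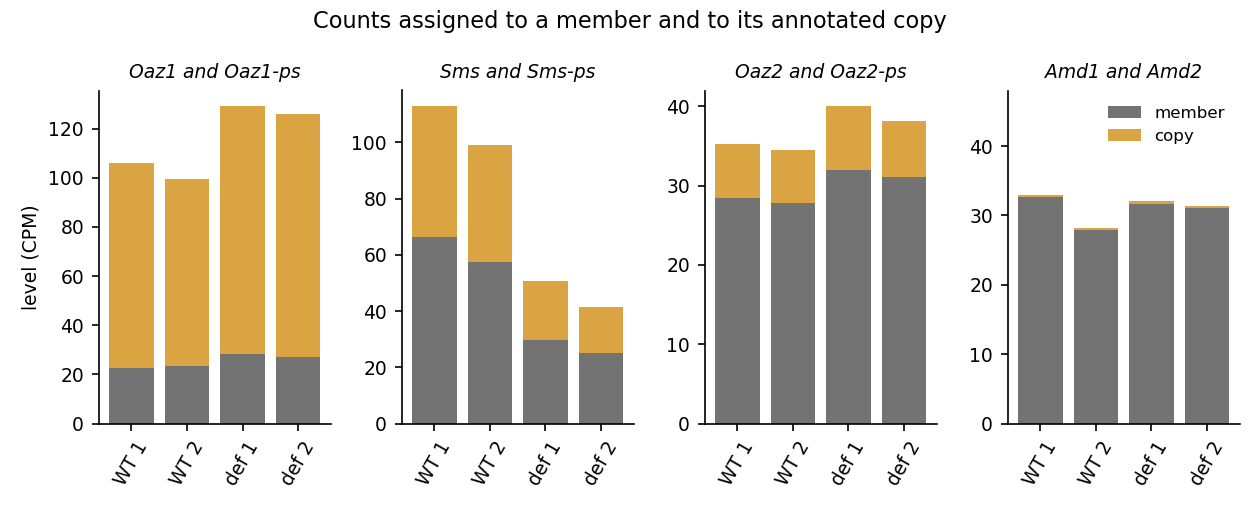
Level in CPM (vertical axis, linear, from 0) of 4 of the genes (grey) and of 1 annotated copy of each (yellow), stacked, in wild-type (WT) and Smg6-deficient (def) replicates 1 and 2. The copy of Oaz1 takes most of its pair in all 4 libraries, that of Amd1 almost none, and the split of each pair is similar in every library.

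A further 32 genes of polyamine metabolism were examined as a group, of which 28 had enough reads to be tested, with 10 higher, 5 lower and a median log2 fold change of 0.038. That is 10 and 5 of 28 beside 20.5% and 19.2% of all tested genes, and the list was not tested as a set. Transporters accounted for 4 of the 10 rises, while 1 other transporter was not called and 3 had too few reads to be tested. Atp13a2, the lysosomal polyamine exporter, had 25.7 and 24.9 CPM in wild-type and 60.2 and 53.4 CPM in Smg6-deficient replicates, and rose 2.24-fold (log2 fold change 1.17, SE 0.094, edgeR adjusted p = 0.000374). Its relative Atp13a3 had 277 and 303 against 365 and 438 CPM and rose by 0.47 on the log2 scale, Atp13a4 by 0.87 at levels from 0.51 to 1.03 CPM, and the vesicular transporter Slc18b1 by 0.48. The hypusine pathway, which uses spermidine to modify the translation factor eIF5A, moved unevenly. Its enzymes Dhps (26.8 ± 0.83 to 43.2 ± 2.10 CPM, SD, n = 2) and Dohh (77.8 ± 2.90 to 99.3 ± 3.06 CPM) rose by log2 fold changes of 0.69 and 0.35, and the substrate Eif5a stood at 686 ± 52.4 and 668 ± 0.044 CPM (log2 fold change -0.039, edgeR adjusted p = 0.760). The minor form Eif5a2 fell by 0.66 on the log2 scale, from 43.1 ± 2.78 to 27.3 ± 2.99 CPM.

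In precursor supply, Mat2a, which makes S-adenosylmethionine, rose by 0.34 on the log2 scale (378 ± 42.6 and 480 ± 2.17 CPM), and 3 genes fell. These were Oat, which turns ornithine into a precursor of glutamate and proline (log2 fold change -0.38), the arginase Arg2 (-1.22, from 1.41 ± 0.55 CPM) and the X-linked Otc (-3.77, with 22 and 20 counts in wild-type and 2 and 1 counts in Smg6-deficient libraries). Among the oxidising and acetylating enzymes Paox (0.46) and Sat2 (0.69) rose and Smox did not pass (0.17, edgeR adjusted p = 0.226). In methionine salvage, which recycles the by-product of Srm and Sms, Adi1 fell by 0.82 on the log2 scale (66.6 and 64.8 against 39.1 and 35.5 CPM), Mri1 rose by 0.45, and Mtap, Apip and Enoph1 did not pass. The further regulators Azin2 (log2 fold change 0.28, edgeR adjusted p = 0.0749) and Oaz3 (-0.73, edgeR adjusted p = 0.135) did not pass either. Leaving out Smg6-deficient replicate 1 ended the calls of Oat, Mat2a, Paox, Sat2, Mri1, Atp13a4 and Dohh (edgeR adjusted p from 0.0815 to 0.253), and leaving out replicate 2 ended these and those of Arg2, Atp13a3 and Slc18b1 (0.0508 to 0.262). Without wild-type replicate 2, Paox (0.0735) and Slc18b1 (0.0556) lost theirs. Without wild-type replicate 2 the value of Mat2a fell to 0.21, and without wild-type replicate 1 that of Arg2 moved to -0.73. The gene length correction ended the calls of Atp13a3 (0.29, edgeR adjusted p = 0.0731) and Oat (-0.27, 0.0624), and no filter or library size alone ended those of Mat2a and Paox (edgeR adjusted p from 0.0556 to 0.0597). By limma-trend on log2(RPKM + 1), Mat2a, Paox, Sat2, Mri1, Dohh, Slc18b1, Atp13a4, Arg2 and Otc did not pass (limma-trend adjusted p from 0.0577 to 0.181). On log2(RPKM + 0.1), a scale that shrinks changes of low genes less, only Otc of these passed (limma-trend adjusted p = 0.0257). Oat did not pass on that scale (limma-trend adjusted p = 0.0521). The calls of Atp13a2, Dhps, Adi1 and Eif5a2 held in all 16 alternative settings of each.

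**Figure D4:**
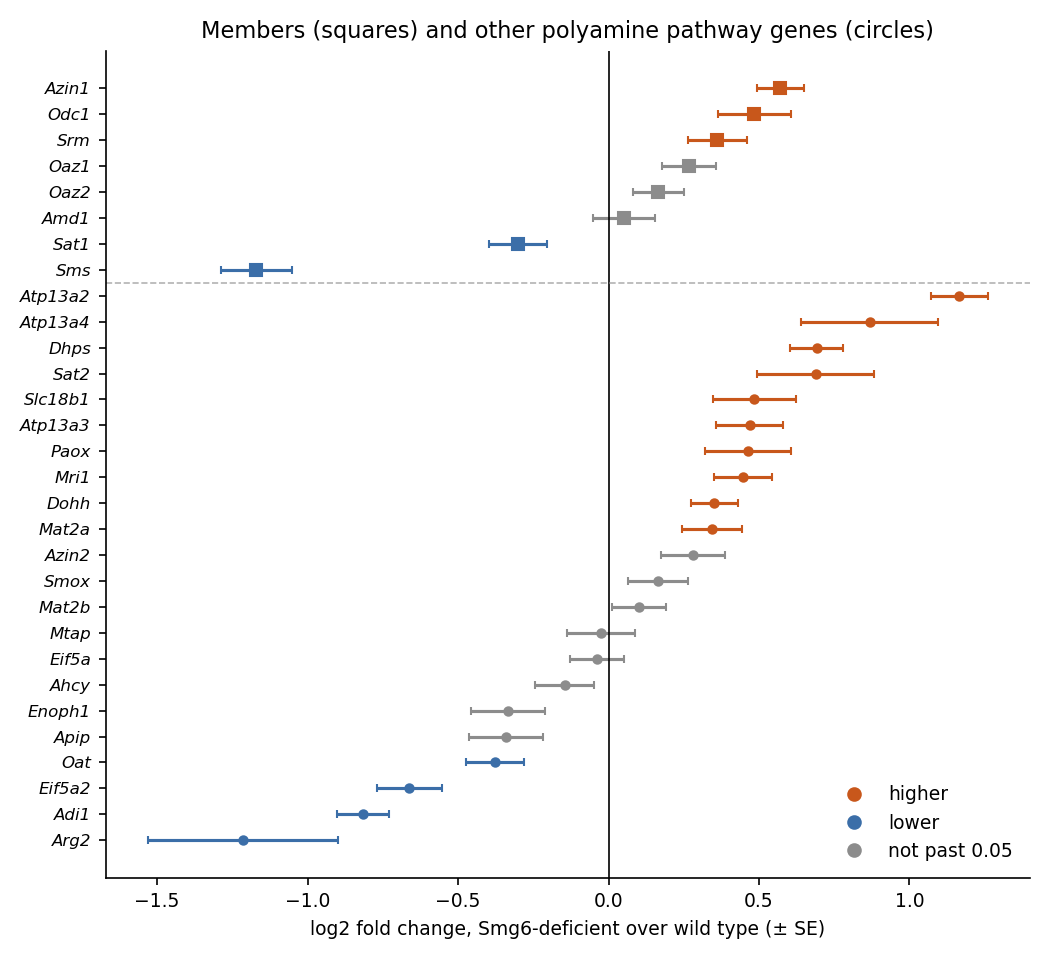
Log2 fold change, Smg6-deficient over wild type, with its standard error (horizontal axis) for the 8 members (squares, above the dashed line) and the 22 other tested pathway genes with a mean count of at least 100 (circles). Orange marks genes that were higher, blue those that were lower and grey those not past an adjusted p of 0.05. Azin1 (0.57) and Sms (-1.17) are the ends of the upper group.

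Levels can be set against each other between genes only per length, for which the authors' RPKM (reads relative to both library total and length of the gene) were used. In wild-type cells Odc1 (66.7 and 49.3 RPKM), Srm (58.1 and 46.1) and Azin1 (41.4 and 38.9) formed an upper tier, and the ranges of Odc1 and Srm overlapped. Sat1 followed at 11.9 and 11.6 RPKM, and Sms, Amd1, Oaz2 and Oaz1 lay between 7.26 and 9.83 RPKM, each overlapping its neighbour. In Smg6-deficient cells the upper tier kept its order without overlap, with Odc1 at 82.3 and 74.6, Srm at 66.2 and 63.2 and Azin1 at 59.2 and 56.4 RPKM. Sat1, Oaz1, Oaz2 and Amd1 lay between 7.87 and 9.59 RPKM, each overlapping its neighbour, and Sms came last at 4.26 and 3.41 RPKM. Oaz1-ps was at 93.2 to 127 RPKM, above every member in every library, so the place of Oaz1 in this order is uncertain. The same holds for Sms, whose copy held 39.3% to 42.0% of the reads of the pair. Amd1 shares 87.6% and Odc1 42.2% of their stretches of 50 bases with other annotated genes. Their places are therefore uncertain too, as the assignment of reads with several alignments is not known.

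Myc, the known activator of Odc1, was measured at 31.3 and 20.996 CPM in wild-type and at 74.6 and 75.5 CPM in Smg6-deficient replicates 1 and 2. Its level rose 2.87-fold (log2 fold change 1.52, SE 0.18, edgeR adjusted p = 0.00122). Wild-type replicate 2 was the lower of the pair for Myc, as it was for Odc1 and Srm and also for Amd1, Mat2a and Eif5a. The same held for Sms and Oat, which fell, whereas that replicate was the higher for Sat1, Oaz1, Atp13a3 and Eif5a2. Over the 4 libraries, the genes whose centred log2 CPM lay nearest to that of Odc1 among 8786 genes were Gpatch4, Tmcc3 and Trip10 (Euclidean distances 0.0231, 0.0277 and 0.0428). Those nearest to Sat1 were Mterf3, Cln8 and Rell1 (0.0171, 0.0259 and 0.0279), all on autosomes. Their log2 fold changes were 0.48 to 0.51 for the former and -0.31 to -0.28 for the latter. Being chosen as nearest over the same 4 libraries places these values close to those of Odc1 and Sat1, so they are no separate observation.

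**Figure D5:**
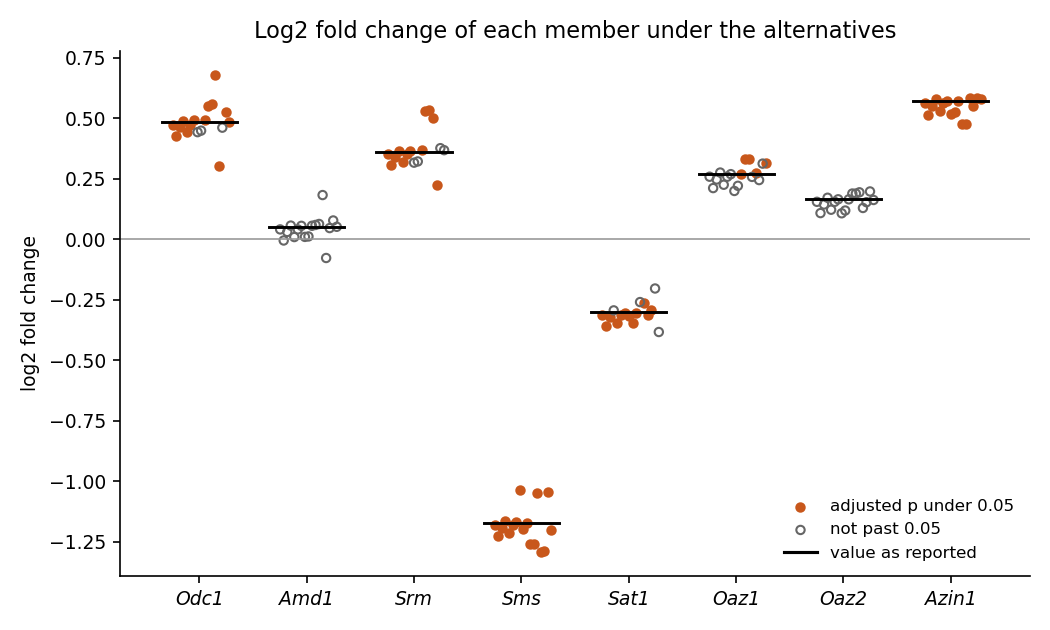
Log2 fold change of each of the 8 genes (vertical axis) under the alternative settings (points) and as reported (black lines). Filled points have an adjusted p under 0.05 and open points do not. The points of Azin1 and Sms are filled throughout, those of Amd1 and Oaz2 open throughout, and those of Odc1, Srm, Sat1 and Oaz1 are mixed.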

How the data were processed

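Libraries were made from TRIzol RNA with a TruSeq v2 kit, which is unstranded, and read as single 50 nt reads, per the labels' protocols. The submitters' processing notes name TopHat2 2.0.9 as the aligner and mm10 as the genome. Which counter and annotation were used is not given in the sources used here. The authors deposited a read count and an RPKM value per gene and library, and the ratio of both implies gene lengths at a median of 1.17 times the merged exons of GENCODE when the total gene count is taken as the library size. Which length and total the authors used is not given in the sources used here. GENCODE M21 (GRCm38) gave symbols for 35449 of the 37224 genes, and transcript structures.

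After filterByExpr (minimum count 10) and TMM scaling, edgeR 4.0.16 (R 4.3.3) tested 20895 genes by quasi-likelihood with genotype as the only term, 2 residual degrees of freedom and a threshold of 0.05 on the adjusted p. The SE was obtained as the size of the log2 fold change over the root of F. On data simulated for this comparison with 20621 genes, 16 of 49 genes changed by 0.5 on the log2 scale and 36 of 49 changed by 1 were recovered. Among genes left unchanged, 15 were called. The simulation took its dispersion from the trend and changed only 49 or 50 genes at each size, against 39.7% of tested genes called in the data. Its rates of recovery and of false calls therefore need not hold for the data.

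The members and lists were chosen with earlier results of these data known. The rule for named genes took all members, Smg6, Myc, annotated copies, other pathway genes past the threshold with the most abundant one that was not, and the 3 genes nearest to Odc1 and to Sat1 (mean log2 CPM at least 4). Further pathway genes that did not pass are named after their values were seen. Alternatives were other scalings and filters, DESeq2 1.42.0, limma 3.58.1 (voom, and trend on log2(RPKM + 1) or log2(RPKM + 0.1)), a replicate block, a loess correction for gene length and leaving out each library. Counts summed with those of copies were added after seeing the data.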

Additional observations from a re-analysis of the deposited data

How the results depend on the processing

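Azin1 and Sms kept their direction and their side of the threshold in every alternative run, as did Myc. The 3 rises among the 8 genes became 1 by limma-trend on log2(RPKM + 1) and on log2(RPKM + 0.1), and 1 to 4 when a library was left out. The 2 falls became 1 with no filter and with the gene length correction, and were 1 to 2 when a library was left out. For the other pathway genes, both limma-trend fits gave 3 higher and 3 lower, and leaving out a library gave 2 to 11 higher and 3 to 7 lower. Over all tested genes, 5141 to 10477 were called with a library left out, against 8289. The sign of Amd1 turned with library size alone (-0.0049) and ranged from -0.077 to 0.18 with a library left out. That of Eif5a turned with the length correction (0.042) and the same with the replicate block (0.044) and ranged from -0.13 to 0.055 with a library left out, and that of Amd2 ranged from -0.099 to 0.34, none of these past the threshold. The cause of these changes was not tested. With the replicate number as a block, the 3 rises became 4, as Oaz1 passed (edgeR adjusted p = 0.0470, log2 fold change 0.27), the falls stayed at 2 and 9687 genes were called in all. The labels share only a number between genotypes, and deviations of same-numbered libraries correlated at 0.178 over 12442 genes. A group reduced to 1 library is taken to vary like the other. In simulated data of 2 libraries a group, 16 of 49 genes changed by 0.5 on the log2 scale were recovered. Far fewer genes were changed there than were called in the data, so this share need not hold here. Changes as small as those of Oaz2 and Amd1 were not simulated.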

Other observations

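The E-box CACGTG, the motif that Myc and its partner Max are known to bind, was searched in RefSeq promoter windows (GRCm38.p6) from 250 bases before to 50 bases after the start, where it reads the same on both strands. Windows were found for 6 of the 8 genes, and none for Srm and Azin1. Among them only Sms held the motif, in 1 of its 2 windows, at chrX:157492478-157492483 on the minus strand, at position -196 from the gene start, and it is shown here with its flanks and the motif in capitals.
Sms: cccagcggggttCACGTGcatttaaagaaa
Of all 32851 promoter windows, 7.15% held the motif. The match is a description of these letters and was not tested as a binding site. Sequence outside the windows, introns included, was not searched, so a window without the motif does not show that the gene lacks it.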
